A study of Mus musculus with 24 samples.

Results

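The nucleolar ribosome assembly factors are 47 of 24421 genes counted in hearts of mice with defects of mitochondrial long-chain fatty acid oxidation. They were taken from a list of symbols with no threshold on their values, and the list was drawn up with earlier results of these data known. Each of the 47 symbols was counted in every library, and all 47 passed the filter on low counts, as did 15804 genes in all. RNA was captured by poly(A) selection from hearts of male mice aged 14 weeks on chow, of a mixed strain described as mostly C57BL/6N with some 129. Genotypes are written here as labelled, Acadl first and Acadvl second. There were 4 wild-type libraries (wt/wt), 4 Het/wt, 3 Het/Het, 4 Het/KO, 4 KO/wt and 5 KO/Het libraries, 24 in all. Acadl and Acadvl encode the long-chain and very-long-chain acyl-CoA dehydrogenases, which start the breakdown of long-chain fatty acids in mitochondria. No library was labelled KO for both genes.

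Ribosomes are put together mostly in the nucleolus, where RNA polymerase I transcribes the ribosomal RNA precursor. Small nucleolar ribonucleoproteins (snoRNPs) of the box C/D and box H/ACA families guide its chemical modification, and large sets of assembly factors fold, cut and load it with ribosomal proteins to form the small and the large subunit. Genes for these factors are known for rising together when cells raise protein synthesis, and the transcription factor Myc is a well-known activator of many of them. The 47 genes were grouped by role: 3 box C/D core proteins, 4 box H/ACA core proteins, 3 nucleolar chaperones or scaffold proteins, 3 genes of RNA polymerase I and its associated helicase, 16 small subunit factors and 18 large subunit factors.

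Total counts ran from 34320838 to 51743114 per library. Reads of Acadl went against the label: its library-scaled counts (CPM, a gene's share of the library's reads on a fixed scale) were higher, not lower, in the 9 libraries labelled Acadl KO, at 1923, 2099.5, 1856 and 1697 in KO/wt and 1929, 1892, 1933, 1855 and 1827 in KO/Het against 1324 to 1625 over the 15 others. Counts over a whole gene do not show which exons an allele lacks, so these values do not check the allele, and "KO" for Acadl below means only that a library was labelled so. Acadvl reads were lower in Het/KO, at 499, 734, 495 and 669 CPM, than in Het/wt, at 1549.8, 1743, 1638 and 1597 CPM. Cardiomyocyte markers were present in every library, with summed levels of 91284 to 117407 CPM. One Het/Het library, replicate 1, drew 17.26% of its counts from the ribosomal RNA precursor gene Rn45s. Reads of the liver gene Alb were above 10 CPM in 6 libraries. These were all 3 Het/Het libraries, at 159, 19.8 and 39.7 CPM, KO/wt replicates 2 and 3, at 61.7 and 13.6 CPM, and Het/KO replicate 2, at 36.8 CPM. The other libraries held 0.067 to 6.62 CPM. With Rn45s left out, 43, 43 and 36 of the 47 genes rose in the 3 knockout comparisons described next, where 20.2%, 20.4% and 13.1% of all genes rose. Without libraries above 10 CPM of Alb 42 rose in the first and 33 in the third, where 13.3% and 9.43% of all genes rose. Of the KO/wt libraries, only replicates 1 and 4 remained in that fit.

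Both knockouts were compared with controls that matched them at the other gene: KO/wt with wt/wt, KO/Het with Het/Het, and Het/KO with Het/wt. These 3 comparisons share no library. In all 3 comparisons, most assembly factor genes were higher in the knockout. Summed over the 47 genes, wild-type libraries held 1677, 1565, 1714 and 1554 CPM and KO/wt libraries 3045, 2959, 2651 and 2296 CPM. The 2 groups did not overlap, and the means differed by 1.68-fold. KO/Het libraries held 2769, 2702, 2605, 2438 and 2466 CPM and Het/Het libraries 1634, 1616 and 1774 CPM, a 1.55-fold difference. Het/KO libraries held 2686, 2689.8, 2364 and 2058 CPM and Het/wt libraries 1638, 1739.6, 1626 and 1940.5 CPM, a 1.41-fold difference. In RNA of whole hearts, more RNA per cell and more cells of a type with high levels cannot be told apart.

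**Figure D1:**
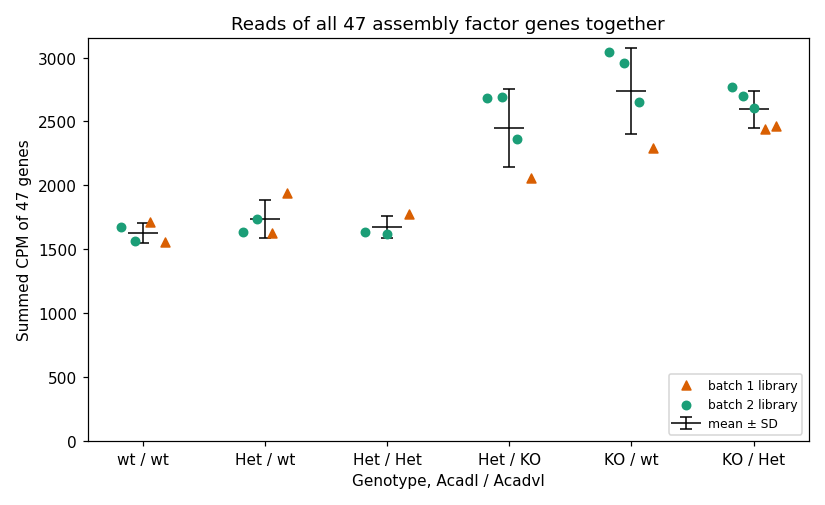
Summed library-scaled counts (CPM, vertical axis) of the 47 assembly factor genes in each of 24 heart libraries, by genotype (Acadl first, Acadvl second); bars are the mean ± SD and marker shapes give the RNA isolation batch. The 13 libraries with a knockout lie between 2058 and 3045 CPM and the 11 others between 1554 and 1940 CPM.

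In edgeR's quasi-likelihood test with Benjamini-Hochberg adjustment over all 15804 genes, 43 of the 47 rose and none fell in KO/wt against wild type, with a median log2 fold change of 0.75. Over all genes, 19.6% were called higher and 17.6% lower in that comparison, and the median was -0.02. KO/Het against Het/Het also gave 43 that rose and none that fell, with a median of 0.57, where 20.1% of all genes were called higher and 20.5% lower. Het/KO against Het/wt gave 36 that rose and none that fell, with a median of 0.49, where 12.9% of all genes were called higher and 11.5% lower. The same 36 genes, 76.6% of the 47, rose in all 3 comparisons, and 8.68% of all genes did. Every knockout library lay above every control library for 41 of the 47 genes in the first comparison, 39 in the second and 30 in the third, beside 18.1%, 18.4% and 11.7% of all genes. For 24 of the 47, or 51.1%, all 13 knockout libraries of any genotype lay above all 11 others, which held for 4.97% of all genes.

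**Figure D2:**
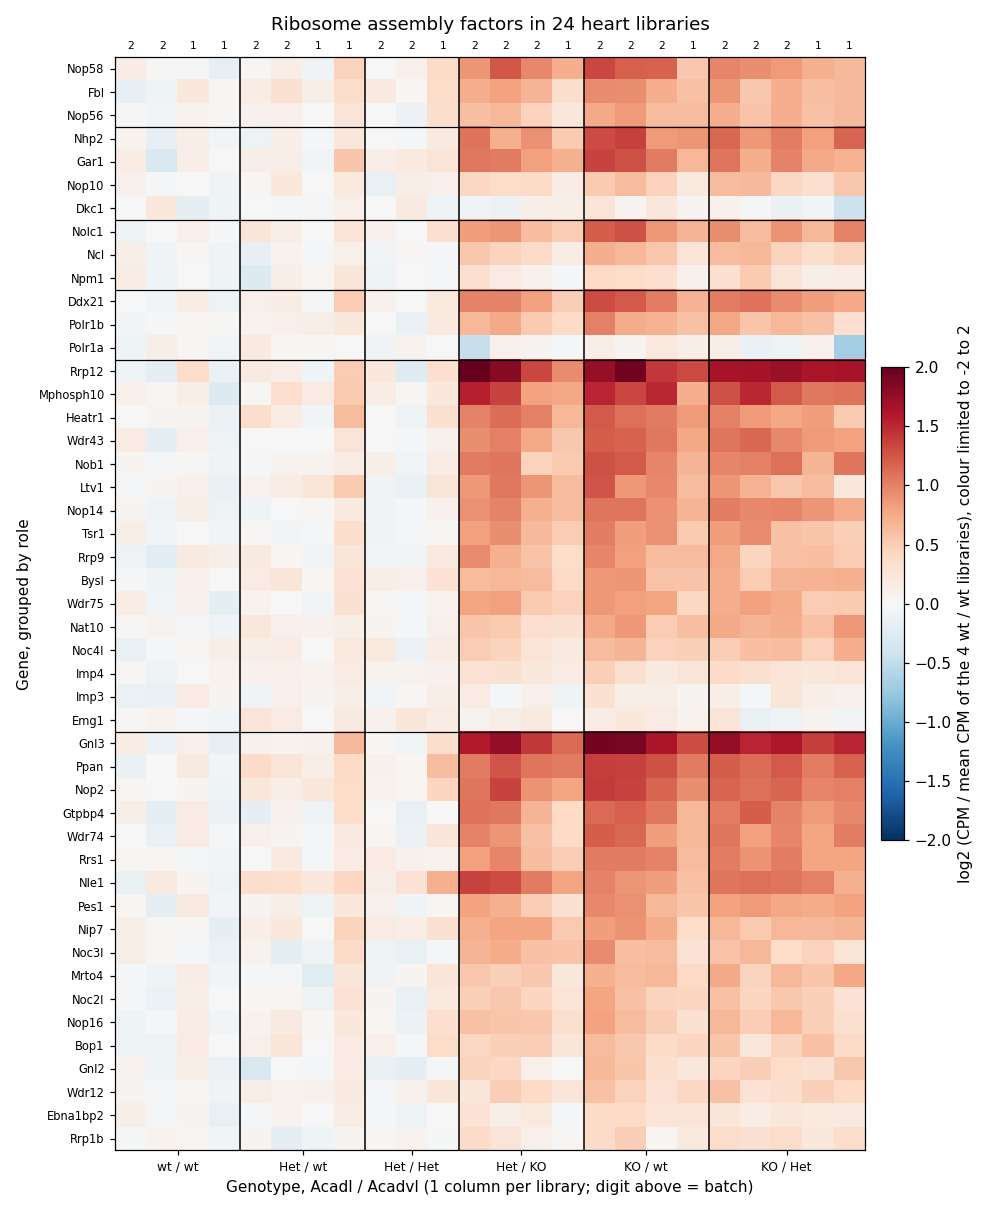
Level of each of the 47 genes (rows, grouped by role and ordered by change within a role) in each of 24 libraries (columns, grouped by genotype, with the isolation batch as a digit above), as log2 of the CPM over the mean of the 4 wild-type libraries. Most rows are red across the 13 knockout libraries, while Dkc1, Polr1a, Imp3 and Emg1 stay near 0 or vary in both directions.

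Promoter sequences were examined because these genes moved together. RefSeq windows of GRCm38.p6, from 250 bases before to 50 bases after the annotated start, were matched by symbol for 41 of the 47 genes, and 3 of these had more than 1 window. The E-box CACGTG, the hexamer that Myc and related factors are known to bind, was found in 7 of the 41, or 17.1%. It was in 1308 of 11668 tested genes with a window, or 11.2%, in 15 of 73 other subunit assembly factors, or 20.5%, and in 7.15% of all 32851 windows. Of the 7, Wdr43, Ltv1, Tsr1, Nop2, Pes1 and Nle1 rose in all 3 comparisons, and Imp4 rose in the 2 Acadl comparisons. The other motifs searched were rarer. TGATGNAAT, a stress response element, was in none of the 41, in 0.626% of tested genes and in 0.965% of all windows. The palindrome CTCGCGAG was in 1 of the 41, Tsr1, in 1.87% of tested genes and in 0.919% of all windows. Matches were counted on both strands, no motif is contained in another, and a match describes only these letters in these windows. The stretches of 5 of the 7 genes with an E-box follow from 120 bases before to 30 bases after the start, 5′ to 3′ on the gene's strand, with the E-box in capitals. They show how its position differs: 60 bases before the start in Nop2, at base 3 of the transcript in Pes1, and at bases 18, 25 and 24 in Wdr43, Tsr1 and Nle1. Gnl3, the gene with the largest rise in KO/wt, and Polr1a, which was not called, are given as examples without an E-box.
Nop2 (chr6:125131763-125131912, plus strand): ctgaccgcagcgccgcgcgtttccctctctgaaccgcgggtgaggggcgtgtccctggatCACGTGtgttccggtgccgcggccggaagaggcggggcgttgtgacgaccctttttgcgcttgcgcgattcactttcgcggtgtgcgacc
Wdr43 (chr17:71616095-71616244, plus strand): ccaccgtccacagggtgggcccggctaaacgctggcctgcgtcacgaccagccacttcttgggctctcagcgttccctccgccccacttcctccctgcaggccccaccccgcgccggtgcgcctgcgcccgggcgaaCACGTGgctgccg
Tsr1 (chr11:74897960-74898109, plus strand): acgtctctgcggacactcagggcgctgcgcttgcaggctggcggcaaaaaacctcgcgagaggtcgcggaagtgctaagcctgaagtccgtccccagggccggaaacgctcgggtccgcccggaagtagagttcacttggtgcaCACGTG
Pes1 (chr11:3963855-3964004, plus strand): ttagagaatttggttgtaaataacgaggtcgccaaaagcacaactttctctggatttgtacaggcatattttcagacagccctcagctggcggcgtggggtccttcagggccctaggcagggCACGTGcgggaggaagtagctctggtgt
Nle1 (chr11:82908366-82908515, minus strand): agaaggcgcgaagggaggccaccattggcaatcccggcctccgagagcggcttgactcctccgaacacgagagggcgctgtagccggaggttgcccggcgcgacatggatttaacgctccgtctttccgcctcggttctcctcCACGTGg
Gnl3 (chr14:31019102-31019251, minus strand): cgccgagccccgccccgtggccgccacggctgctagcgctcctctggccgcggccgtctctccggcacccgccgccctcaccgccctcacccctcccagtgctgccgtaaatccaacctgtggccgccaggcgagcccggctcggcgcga
Polr1a (chr6:71908933-71909082, plus strand): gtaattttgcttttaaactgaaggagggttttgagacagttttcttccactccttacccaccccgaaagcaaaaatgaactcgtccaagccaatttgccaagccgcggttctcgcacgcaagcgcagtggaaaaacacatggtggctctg
The stretch of Gnl3 was 77.3% G and C, the highest of the 7 printed, and that of Polr1a 48.0%, the lowest. Of the 32 genes with a window that rose in all 3 comparisons, 6 held CACGTG, or 18.8%, and of the 4 called in none, 0. Of the 5 that rose in the 2 Acadl comparisons only, 1 held it. The last 2 sets are small, and a link between the E-box and the calls was not tested.

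The box C/D core proteins, on which the guide RNAs for ribose methylation are mounted, rose in all 3 comparisons. Nop58, one of the paired scaffold proteins of the particle (chr1:59685006-59711510 in mm10), measured 21.3, 19.4, 18.9 and 17.1 CPM in wild type and 48.3, 44.0, 43.7 and 28.0 CPM in KO/wt. All 4 KO/wt libraries were above all 4 wild-type libraries, with a log2 fold change of 1.05 ± 0.14 (SE, adjusted p = 1.18e-05). Its values were 19.4, 20.7 and 24.9 CPM in Het/Het and 37.8, 36.4, 34.7, 31.3 and 30.1 CPM in KO/Het (0.65 ± 0.14, adjusted p = 0.00151), again without overlap. For the Acadvl knockout, Het/wt libraries held 19.4, 21.0, 18.3 and 26.3 CPM and Het/KO libraries 35.5, 45.4, 37.3 and 31.9 CPM (0.77 ± 0.14, adjusted p = 0.000459), and the lowest knockout library exceeded the highest control. Nop56, its partner scaffold, went from 22.3, 21.9, 24.0 and 23.2 CPM in wild type to 38.7, 41.4, 35.5 and 35.6 CPM in KO/wt (0.73 ± 0.10, adjusted p = 1.33e-05). Fbl, the methyltransferase fibrillarin, went from 15.7, 16.6, 20.4 and 17.96 CPM to 34.2, 33.6, 29.2 and 26.4 CPM (0.79 ± 0.11, adjusted p = 2.42e-05). In Het/KO against Het/wt both rose, by 0.39 and 0.40 on the log2 scale (adjusted p = 0.00668 and 0.0127), and 1 knockout library of each overlapped the controls. Nop58 and Nop56 are also host genes of box C/D guide RNAs, with 2 annotated within Nop58 and 2 within Nop56. Wdr43 and Gnl3 hold 2 each and Tsr1 holds 1. Ncl holds the box C/D guide RNA Snord82 and the box H/ACA guide RNA Snora75.

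The 4 box H/ACA core proteins, which form the pseudouridylation particle, were called unequally: 3, 3 and 2 of the 4 rose in the 3 comparisons. Nhp2, an RNA-binding core protein (chr11:51619773-51623714), measured 16.5, 14.1, 17.4 and 15.3 CPM in wild type and 39.0, 40.9, 28.5 and 29.0 CPM in KO/wt. Every KO/wt library exceeded every wild-type library, and the log2 fold change was 1.11 ± 0.13 (adjusted p = 4.29e-06). Gar1, which helps the enzyme turn over its substrate RNA, went from 8.46, 6.18, 8.39 and 7.63 CPM to 19.6, 18.5, 15.7 and 12.2 CPM (1.07 ± 0.15, adjusted p = 1.6e-05). Nop10, the smallest protein of the complex, went from 30.9, 28.2, 29.2 and 27.5 CPM to 41.6, 45.1, 39.9 and 33.2 CPM, a change of 0.43 ± 0.09 (adjusted p = 0.00076), still with no overlap. In Het/KO against Het/wt, Nhp2 and Gar1 rose (0.75 and 0.67, adjusted p = 0.000405 and 0.00222), and Nop10 had 0.18 (adjusted p = 0.147). Dkc1, the pseudouridine synthase dyskerin itself, was called in none of the 3 comparisons. Its levels were 15.0, 17.6, 13.2 and 14.2 CPM in wild type and 17.98, 15.5, 17.6 and 15.6 CPM in KO/wt, which overlapped (0.13 ± 0.10, adjusted p = 0.328). Its values in the other 2 comparisons were -0.12 and -0.02 (adjusted p = 0.345 and 0.899).

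All 3 nucleolar chaperones or scaffold proteins rose in both Acadl comparisons and 2 of the 3 rose in Het/KO. Nolc1, a phosphoprotein that binds snoRNPs, had the largest change, from 30.6, 32.9, 35.0 and 32.3 CPM in wild type to 75.6, 78.7, 59.7 and 52.6 CPM in KO/wt (1.01 ± 0.12, adjusted p = 3.68e-06). Ncl, the abundant ribosomal RNA-binding protein nucleolin, went from 293, 258, 275 and 258 CPM to 449, 429, 395 and 329 CPM (0.52 ± 0.09, adjusted p = 0.000107). Neither gene's groups overlapped. Npm1, the histone and ribosome chaperone nucleophosmin, went from 157, 133, 142 and 133 CPM to 186, 183, 178 and 151 CPM with 1 wild-type library above the lowest KO/wt library. Its change of 0.28 ± 0.10 (adjusted p = 0.0377) was not called when any of 4 single libraries was left out, with log2 values of 0.24 to 0.33 over all such fits. Those libraries were KO/wt replicates 1 and 2 and wild-type replicates 2 and 4. In KO/Het the change was 0.33 (adjusted p = 0.0175), which was not called without Het/Het replicate 1, and in Het/KO it was 0.07 (adjusted p = 0.641). Reads of Npm1 are uncertain because nearly identical processed copies lie elsewhere in the genome and primary alignments of reads with several matches were counted.

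Of the 2 catalytic subunits of RNA polymerase I, 1 was called. Polr1b, the second largest subunit, went from 19.7, 20.1, 21.0 and 20.6 CPM in wild type to 40.8, 34.2, 33.1 and 30.7 CPM in KO/wt (0.75 ± 0.10, adjusted p = 1.14e-05). Polr1a, the largest subunit (chr6:71909053-71979360), was not called, at 72.9, 84.0, 78.6 and 75.1 CPM in wild type and 84.7, 80.9, 89.2 and 85.1 CPM in KO/wt (0.11 ± 0.13, adjusted p = 0.504). The difference between the 2 genes was not tested. Its lowest values were 48.7 CPM in KO/Het replicate 5 and 56.1 CPM in Het/KO replicate 1, while every other library held 70.6 CPM or more. Its log2 changes in those genotypes were -0.11 and -0.16 (adjusted p = 0.517 and 0.385). Ddx21, an RNA helicase that acts both on polymerase I transcription and on snoRNPs, went from 69.8, 67.1, 77.7 and 65.4 CPM in wild type to 173, 164, 143 and 113 CPM in KO/wt without overlap (1.04 ± 0.13, adjusted p = 4.5e-06). In KO/Het it measured 142, 149, 134, 125 and 118 CPM and in Het/Het 73.9, 70.7 and 80.1 CPM (0.84, adjusted p = 7.92e-05).

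**Figure D3:**
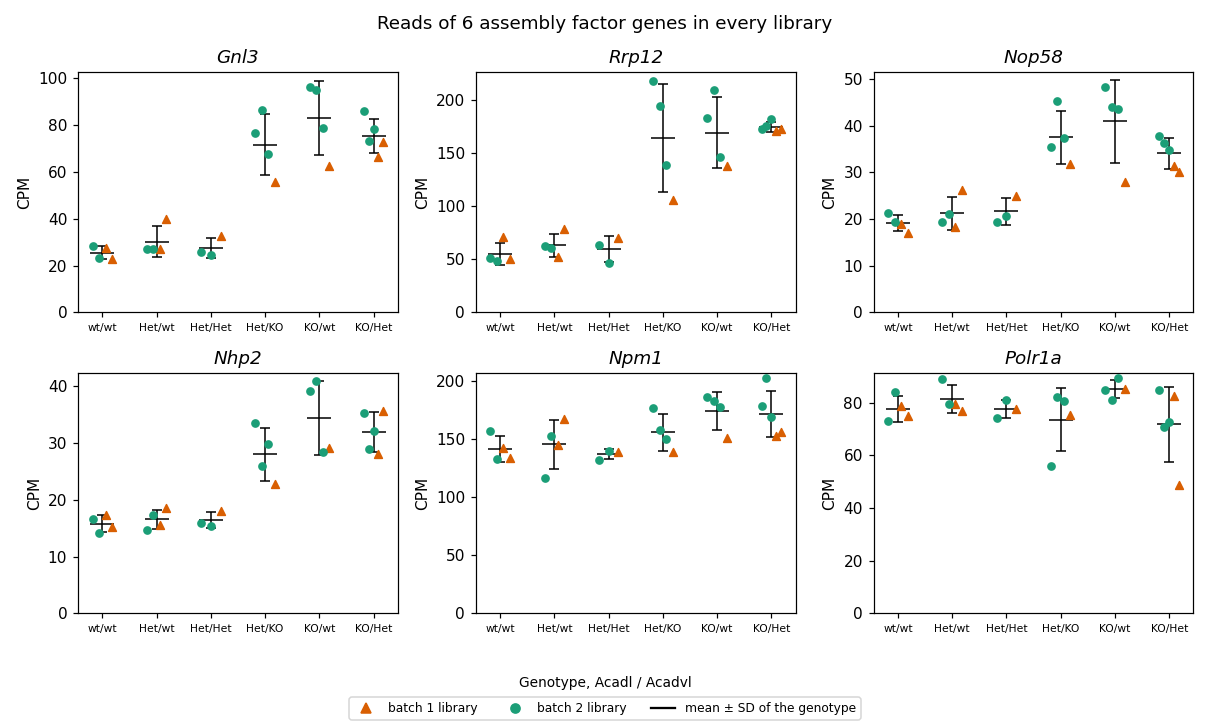
Library-scaled counts (CPM, vertical axes from 0) of 6 genes in every library, by genotype (Acadl first, Acadvl second); bars are the mean ± SD and marker shapes the RNA isolation batch. Gnl3, Rrp12, Nop58 and Nhp2 are higher in all 13 knockout libraries than in all 11 others, Npm1 groups overlap, and Polr1a spans 48.7 to 89.2 CPM with no separation.

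Of the 16 small subunit factors, 14 rose in KO/wt, 14 in KO/Het and 12 in Het/KO, with medians of 0.78, 0.67 and 0.57 on the log2 scale. Rrp12, a repeat protein needed for maturation and export of the small subunit (chr19:41862851-41896153), had the largest rise. It measured 51.0, 47.9, 70.7 and 50.4 CPM in wild type, 62.4, 60.2, 51.9 and 78.2 CPM in Het/wt and 63.4, 46.1 and 69.8 CPM in Het/Het. In the knockouts it measured 218, 194, 139 and 105 CPM in Het/KO, 183, 209.8, 146 and 137 CPM in KO/wt and 172, 175, 182, 171 and 172 CPM in KO/Het. The lowest knockout value, 105 CPM in Het/KO replicate 4, was above the highest of the other libraries, 78.2 CPM in Het/wt replicate 4. The log2 fold changes were 1.60 ± 0.20, 1.55 ± 0.21 and 1.36 ± 0.20 (adjusted p = 7.57e-06, 2.65e-05 and 7.08e-05). Mphosph10, which scaffolds the early small subunit precursor, went from 15.4, 14.5, 15.5 and 11.8 CPM in wild type to 41.1, 36.1, 40.5 and 23.6 CPM in KO/wt (1.24 ± 0.17, adjusted p = 1.36e-05). Of its partners in the same complex, Imp4 rose by 0.30 (adjusted p = 0.00133) and by 0.22 in KO/Het (adjusted p = 0.0154, a call lost without Het/Het replicate 1, with 0.19 to 0.24 over all such fits), and Imp3 had 0.16 (adjusted p = 0.129). Heatr1, of the complex that links polymerase I transcription to processing, went from 22.1, 23.0, 22.9 and 20.5 CPM to 51.7, 47.7, 45.6 and 40.1 CPM (1.04 ± 0.13, adjusted p = 6.81e-06). Wdr43 and Wdr75, of the same complex, rose by 1.03 and 0.69 in KO/wt (adjusted p = 7.27e-07 and 3.53e-05), and by 0.71 and 0.52 in Het/KO (adjusted p = 6.73e-05 and 0.000887).

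Late-acting small subunit factors rose as well. Nob1, the endonuclease that makes the last cut of the small subunit RNA, had a log2 fold change of 1.02 in KO/wt (adjusted p = 7.1e-06), 0.91 in KO/Het and 0.69 in Het/KO. Ltv1, a factor shed late in assembly, had 0.93, 0.58 and 0.59 in the same order. Tsr1, a GTPase-like factor of the late precursor, had 0.80, 0.71 and 0.62, and Bysl, another precursor factor, 0.73, 0.50 and 0.39. All 4 passed the test in each comparison. Nop14, a core early factor, rose by 0.92, 0.93 and 0.76 (adjusted p = 7.09e-07, 1.58e-06 and 1.04e-05). Rrp9, a protein of the snoRNP that acts in early cleavage, and Nat10, an RNA acetyltransferase, rose by 0.77 and 0.68 in KO/wt and by 0.56 and 0.29 in Het/KO, all past the threshold. Noc4l, a binding partner of Nop14, rose by 0.56 and 0.50 in the 2 Acadl comparisons (adjusted p = 0.00012 and 0.000536) and had 0.24 in Het/KO (adjusted p = 0.0668). Emg1, a base methyltransferase of small subunit RNA, was not called: wild-type libraries spanned 35.0 to 38.1 CPM, KO/wt 38.0 to 42.1, KO/Het 32.7 to 43.3 and Het/KO 36.6 to 41.3. Imp3 likewise spanned 20.4 to 25.0 CPM in wild type, 23.0 to 27.4 in KO/wt, 21.8 to 26.5 in KO/Het and 21.1 to 24.9 in Het/KO.

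All 18 large subunit factors rose in KO/wt and in KO/Het, and 15 rose in Het/KO, with medians of 0.66, 0.56 and 0.48. Gnl3, the GTPase nucleostemin (chr14:31012433-31019131), had the largest rise of the 47 genes in KO/wt. It measured 28.3, 23.4, 27.3 and 22.8 CPM in wild type, 27.0, 26.9, 26.9 and 39.9 CPM in Het/wt and 25.8, 24.5 and 32.4 CPM in Het/Het. The knockout libraries measured 76.7, 86.3, 67.8 and 55.6 CPM in Het/KO, 96.1, 94.9, 78.9 and 62.6 CPM in KO/wt and 85.8, 73.3, 78.2, 66.4 and 72.9 CPM in KO/Het, all above 39.9 CPM, the highest of the others, in Het/wt replicate 4. The log2 fold changes were 1.68 ± 0.16, 1.45 ± 0.17 and 1.22 ± 0.16 (adjusted p = 3.39e-07, 4.13e-06 and 1.9e-05). Ppan, an early large subunit factor, went from 8.14, 8.88, 10.1 and 8.57 CPM in wild type to 23.3, 22.9, 21.6 and 18.4 CPM in KO/wt (1.27 ± 0.12, adjusted p = 2.44e-07). Nop2, a methyltransferase of large subunit RNA, went from 26.6, 25.7, 26.8 and 24.3 CPM to 67.8, 66.0, 57.6 and 49.3 CPM (1.20 ± 0.12, adjusted p = 3.49e-07). Neither overlapped between the groups. In Het/KO these rose by 0.82 and 0.78 (adjusted p = 3.59e-05 and 5.96e-05).

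Gtpbp4 and Gnl2 are GTPases like Gnl3. Gtpbp4 rose by 0.98, 1.06 and 0.73 in the 3 comparisons, and Gnl2, the nucleolar relative of Gnl3, rose by 0.45 and 0.55 and had 0.28 in Het/KO (adjusted p = 0.0797). Pes1, Bop1 and Wdr12 form 1 complex that is needed to process large subunit RNA. Pes1 rose by 0.76, 0.79 and 0.49, Bop1 by 0.51, 0.29 and 0.29, and Wdr12 by 0.44, 0.31 and 0.24. All 9 passed the test, with the weakest for Wdr12 in Het/KO (adjusted p = 0.0371), Bop1 in Het/KO (adjusted p = 0.0311) and Bop1 in KO/Het (adjusted p = 0.0236). Each of these 3 calls was lost when 1 of several single libraries was left out. Wdr12 in Het/KO lost its call without Het/wt replicate 2 or 3 or Het/KO replicate 2 or 3 (log2 0.19 to 0.29 over all such fits), and Bop1 in Het/KO without Het/wt replicate 3 or Het/KO replicate 2 or 3 (0.25 to 0.38). Bop1 in KO/Het lost its call without Het/Het replicate 1 or 2 or KO/Het replicate 1 or 4 (0.23 to 0.42). Rrs1, which helps install a small RNA-protein particle in the large subunit, rose by 0.88 ± 0.08, 0.81 ± 0.09 and 0.61 ± 0.08 (adjusted p = 2.88e-07, 1.38e-06 and 2.32e-05).

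Noc2l and Noc3l, which pair in early large subunit precursors, rose by 0.57 and 0.61 in KO/wt, 0.43 and 0.57 in KO/Het and 0.35 and 0.55 in Het/KO. Wdr74 and Nle1, factors on which release steps by the large ATPases of the pathway depend, rose by 0.96 and 0.80 in KO/wt, 0.88 and 0.60 in KO/Het and 0.64 and 0.78 in Het/KO. Nle1 had the lowest of the 47 log2 values in KO/wt against Het/KO, -0.31 (adjusted p = 0.158): Het/KO libraries held 21.5, 20.8, 17.3 and 14.6 CPM and KO/wt libraries 16.7, 15.6, 15.0 and 12.6 CPM, which overlapped. Mrto4, a stalk assembly factor, Nip7 and Nop16 rose in all 3 comparisons, by 0.60, 0.70 and 0.55 in KO/wt and 0.45, 0.47 and 0.36 in Het/KO. Ebna1bp2 and Rrp1b, with the smallest large subunit changes in KO/wt, rose by 0.32 and 0.27 in KO/wt (adjusted p = 0.00137 and 0.0223). They had 0.09 and 0.21 in Het/KO, which did not pass (adjusted p = 0.38 and 0.0967). The Rrp1b call in KO/wt was lost without wild-type replicate 1 or KO/wt replicate 2, with log2 values of 0.22 to 0.35 over all such fits.

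**Figure D4:**
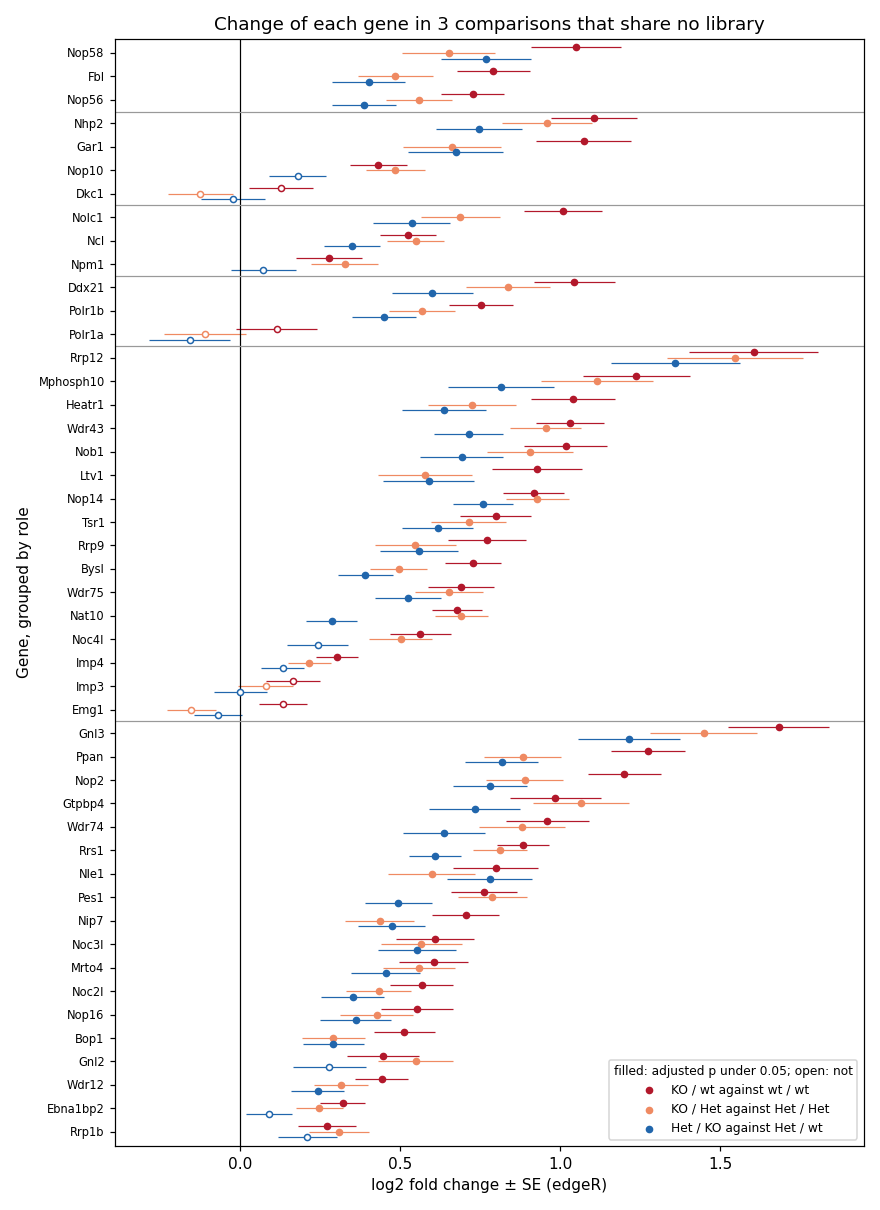
Log2 fold change with its standard error (horizontal axis) of the 47 genes (rows, grouped by role) in the 3 comparisons that share no library; filled points passed an adjusted p of 0.05 and open points did not. Rrp12 and Gnl3 lie farthest to the right in each comparison, and the 4 genes with only open points are Dkc1, Polr1a, Imp3 and Emg1.

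Dkc1, Polr1a, Imp3 and Emg1, 4 of the 47, were thus called in none of the 3 comparisons. Another 7 rose in the 2 Acadl comparisons and were not called in Het/KO: Nop10, Npm1, Noc4l, Imp4, Rrp1b, Gnl2 and Ebna1bp2. These groups depend on single libraries. Over fits without 1 library, Noc4l and Gnl2 were called higher in Het/KO in 6 fits each (log2 0.20 to 0.32 and 0.19 to 0.38 over all such fits). Rrp1b was called higher there in 3 (0.15 to 0.27). Imp3 was called higher in KO/wt in 1 (0.12 to 0.22), and Emg1 lower in KO/Het in 1 (-0.22 to -0.10). Across the 47 genes the log2 changes in KO/wt and Het/KO ran in nearly the same order (Pearson r = 0.959, Spearman rho = 0.951), as did those in KO/wt and KO/Het (r = 0.928, rho = 0.902) and in KO/Het and Het/KO (r = 0.933, rho = 0.898). These values describe 47 genes measured in the same libraries within a comparison, and genes are not independent replicates. The change was larger in KO/wt than in Het/KO for 47 of 47 genes, and the median ratio of the Het/KO change to the KO/wt change was 0.641.

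That difference in size did not pass the test for any gene. The Acadvl effect was measured in Acadl Het hearts and the Acadl effect from wild type. The knocked-out gene and the background therefore cannot be told apart in it. The KO/wt change minus the Het/KO change had a median of 0.25 on the log2 scale and was positive for all 47 genes, while 15 had an unadjusted p under 0.05 and none an adjusted one. Nat10 came nearest, with a difference of 0.39 ± 0.11 (adjusted p = 0.185), followed by Ppan with 0.46 ± 0.16 (adjusted p = 0.267) and Nolc1 with 0.47 ± 0.17 (adjusted p = 0.274). Over all genes, 0.0823% were called higher and 0.0696% lower by this test, and the share at an unadjusted p under 0.05 is not given. DESeq2 called none of the 47 either. Directly compared, KO/wt and Het/KO libraries gave a median of 0.15 over the 47 genes. Of the 47, 45 were above 0, 9 had an unadjusted p under 0.05 in edgeR's test and none was called. Of all 15804 genes, 8039 were above 0 and 3460 had an unadjusted p under 0.05, and 1.77% were called higher and 2.66% lower. Nat10 had the lowest adjusted p there, 0.0566, with 35.8, 35.2, 30.8 and 30.4 CPM in Het/KO and 41.2, 44.9, 35.0 and 37.2 CPM in KO/wt. DESeq2 called 1 of the 47 in this comparison, Nat10 (0.26, adjusted p = 0.0315).

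The other 3 comparisons, KO/Het against KO/wt and the heterozygotes against each other and against wild type, gave no called gene among the 47. KO/Het against KO/wt gave a median of -0.07, with 2 of the 47 genes, Dkc1 (-0.24) and Ltv1 (-0.33), at an unadjusted p under 0.05 and none called. Of all 15804 genes, 1396 had an unadjusted p under 0.05 in edgeR's test and 0% were called in either direction. Het/wt against wild type gave a median of 0.11 and none of the 47 called, again with 0% of all genes called higher and 0% lower. Of all 15804 genes, 7932 were above 0 and 540 had an unadjusted p under 0.05 in edgeR's test. Of the 47, 44 were above 0 and 5 had an unadjusted p under 0.05. The 5 were Ppan, Nle1, Heatr1, Bysl and Nop2, with log2 changes of 0.29, 0.33, 0.29, 0.19 and 0.24 (unadjusted p = 0.0188, 0.0205, 0.0339, 0.0388 and 0.0433 in edgeR's test). All 5 had an adjusted p of 1.00 in the same fit. Het/Het against Het/wt gave a median of -0.04 with none of the 47 at an unadjusted p under 0.05, where 0.00633% of all genes were called higher and 0% lower. Of all 15804 genes, 448 had an unadjusted p under 0.05 in edgeR's test of that comparison. DESeq2 also called none of the 47 in these comparisons.

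Read counts depend on transcript length, so levels between genes were compared per length, as RPKM (CPM divided by exon length in kilobases), in the 4 wild-type hearts. Npm1 was highest at 82.2 ± 6.46 RPKM (SD, n = 4), followed by Nop10 at 39.2 ± 1.98, Emg1 at 34.7 ± 1.33, Ncl at 32.9 ± 2.02 and Imp3 at 24.8 ± 2.43. Rrp1b was lowest at 2.90 ± 0.120 RPKM, with Noc3l at 3.25 ± 0.225 and Heatr1 at 3.27 ± 0.171. Npm1 stood clear of Nop10, while Emg1 and Ncl lay within their spread of each other. Of the 4 genes called in none of the 3 comparisons with all 24 libraries, Emg1 and Imp3 were among the 5 highest. Polr1a was at rank 19 with 12.7 ± 0.791 RPKM and Dkc1 at rank 39 with 5.36 ± 0.664 RPKM. Gnl3 at 13.1 ± 1.42 and Rrp12 at 12.7 ± 2.45 RPKM, the genes with the largest rises, were at ranks 16 and 18.

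Libraries of 1 genotype differed from each other across most of the 47 genes at once. Het/KO replicate 4 was the lowest of its genotype for 43 of the 47 genes and KO/wt replicate 4 for 36. Among the controls, Het/wt replicate 4 was the highest of its genotype for 41 genes and Het/Het replicate 3 for 36. These 4 libraries belong to RNA isolation batch 1, which holds 9 of the 24 libraries. Batch 2 libraries stood out as well: KO/wt replicate 1 was highest for 32 genes and Het/Het replicate 2 lowest for 29. Within batch 1, Het/wt replicate 3 was the lowest of its genotype for 27, the other way from replicate 4. Summed over the 47 genes, batch 1 libraries were the lowest of each knockout genotype: 2296 CPM against 2651 to 3045 in KO/wt, 2058 against 2364 to 2689.8 in Het/KO, and 2438 and 2466 against 2605 to 2769 in KO/Het. Wild-type libraries overlapped between batches, at 1554 and 1714 CPM in batch 1 and 1565 and 1677 CPM in batch 2. So did Het/wt libraries, at 1626 and 1940.5 CPM in batch 1 and 1638 and 1739.6 CPM in batch 2. The Het/Het library of batch 1 held 1774 CPM against 1616 and 1634 CPM in batch 2. With batch 2 libraries alone, 42, 41 and 34 genes rose in the 3 comparisons, with medians of 0.86, 0.74 and 0.59, where 15.7%, 13.6% and 8.97% of all genes rose. With batch 1 alone, which leaves 1 library in KO/wt, Het/KO and Het/Het that is assumed to vary like the other groups, 1, 1 and 0 genes were called, where 0.354%, 1.66% and 0.981% of all genes rose, and the medians were 0.52, 0.42 and 0.24. The called genes were Nop2 in KO/wt (0.96) and Rrs1 in KO/Het (0.73).

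Counting did not use strand, so reads in overlapping exons cannot be assigned to 1 gene. Exons of 12 of the 47 genes overlap another gene's. The largest shared parts were 34.2% of Tsr1 with Srr, 27.7% of Emg1 with Lpcat3, 21.5% of Noc2l with Samd11, 20.4% of Ebna1bp2 with D4Ertd617e and 9.29% of Bysl with Ccnd3. The partners Srr, Lpcat3 and Samd11 had log2 changes of 0.42, 0.66 and 0.53 in KO/wt, and D4Ertd617e and Ccnd3 had -0.34 and -0.04. The values of Tsr1, Emg1, Noc2l, Ebna1bp2 and Bysl are therefore uncertain by the reads they share. Gnl3 shares 9 bases with Glt8d1, whose log2 change in KO/wt was -0.60, and Nhp2 4.18% of its exons with Rmnd5b.

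Further genes of the pathway, from lists drawn up with earlier results of these data known, were also counted. Over all genes, 19.6%, 20.1% and 12.9% rose and 17.6%, 20.5% and 11.5% fell in KO/wt, KO/Het and Het/KO. Of 42 other small subunit factors tested, 34 rose and none fell in KO/wt, 35 rose and none fell in KO/Het, and 18 rose and 1 fell in Het/KO, with medians of 0.38, 0.41 and 0.23 on the log2 scale. Dhx37, an RNA helicase of the small subunit precursor, led with 1.21 (adjusted p = 2.93e-07), followed by Riok2, a late-acting kinase, with 1.03 and Cirh1a with 0.93. Of 46 other large subunit factors, 38 rose and 1 fell in KO/wt, 36 rose and none fell in KO/Het, and 28 rose and none fell in Het/KO, with medians of 0.54, 0.43 and 0.33. Nmd3, the export adaptor of the large subunit, led with 1.23 (adjusted p = 3.51e-07), ahead of the ATPase gene Spata5 with 1.17 and Ccdc86 with 1.15. The helicase gene Ddx55 fell by 0.35 on the log2 scale (adjusted p = 0.0434).

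Other subunits and factors of RNA polymerase I included both directions, with 10 of 18 that rose and 1 that fell in KO/wt, 10 and 2 in KO/Het, and 7 and 0 in Het/KO. For this list and the next 2, the shares of all genes were 19.6%, 20.1% and 12.9% higher and 17.6%, 20.5% and 11.5% lower. Taf1d, of the promoter selectivity factor, rose by 1.26 in KO/wt (adjusted p = 0.000146), and the subunit genes Twistnb and Cd3eap rose by 0.75 and 0.71. Polr1e fell by 0.37 on the log2 scale (adjusted p = 0.0223). Among snoRNP assembly chaperones, 5 of 12 rose and 1 fell in KO/wt, 4 and 1 in KO/Het, and 2 and 2 in Het/KO. They were led by Nufip1, which brings box C/D proteins together, with 0.87 (adjusted p = 3.43e-06), and Pih1d1 fell by 0.25 on the log2 scale. Of 17 genes of the nuclear exosome and ribosomal RNA trimming, 9, 8 and 4 rose in the 3 comparisons and none fell. Exosc2 and Exosc1 had 0.77 and 0.51 in KO/wt (adjusted p = 0.000421 and 0.00108).

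Of 26 regulators of ribosome production tested, 8 rose and 2 fell in KO/wt, 7 and 2 in KO/Het, and 5 and 1 in Het/KO. Median log2 changes of this list were 0.07, 0.12 and 0.10. The shares of all genes were 19.6%, 20.1% and 12.9% higher and 17.6%, 20.5% and 11.5% lower. Myc measured 12.0, 9.21, 10.004 and 9.64 CPM in wild type, 65.3, 34.8, 78.7 and 21.2 CPM in KO/wt, 11.8, 12.9 and 17.1 CPM in Het/Het and 42.0, 52.4, 52.0, 40.4 and 29.9 CPM in KO/Het. It measured 19.4, 13.2, 14.9 and 30.0 CPM in Het/wt and 38.3, 75.1, 59.1 and 59.9 CPM in Het/KO. Knockout libraries were above their controls in each comparison, with log2 changes of 2.24 ± 0.34, 1.63 ± 0.36 and 1.54 ± 0.33 (adjusted p = 6.47e-05, 0.0015 and 0.00221). Levels in KO/wt varied widely, and the lowest was in replicate 4, which also had the lowest value of its genotype for 36 of the 47 assembly factors. The highest was in replicate 3, which was highest for 1 of the 47 and lowest for 9. In Het/KO, replicate 4, lowest for 43 of the 47, held 59.9 CPM of Myc. The lowest Myc level of Het/KO was in replicate 1, which was highest for 20 of the 47, and the highest in replicate 2, which was highest for 24. In the other genotypes Myc was highest in Het/wt replicate 4, Het/Het replicate 3, wild-type replicate 1 and KO/Het replicate 2. These libraries were the highest of their genotype for 41, 36, 14 and 12 of the 47, in that order. KO/Het replicate 2 was also the lowest for 12, and KO/Het replicate 1 was the highest for 21. In wild type, replicate 3 was the highest for 23. A link between Myc levels and those of the 47 genes was not tested. Mtor, the growth-control kinase, rose by 1.36 ± 0.12 in KO/wt and 1.23 ± 0.12 in Het/KO (adjusted p = 2.49e-07 and 1.08e-06), and Eif4ebp1, an inhibitor of translation initiation that Mtor phosphorylates, rose by 0.68 in KO/wt (adjusted p = 0.00959). Mxi1, an antagonist of Myc, fell by 0.94 on the log2 scale (adjusted p = 2.71e-05), and Mycn, another Myc family gene, fell by 0.86 (adjusted p = 0.0451).

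Markers of dividing cells were low, with a sum over 10 genes of 15.5 to 37.1 CPM in the 24 libraries, and none of the 10 was called by edgeR in KO/wt or Het/KO, with 0 and 4 at an unadjusted p under 0.05. In KO/Het 3 of the 10, Ccnb1, Birc5 and Ccna2, rose, by 1.03, 0.81 and 0.44 on the log2 scale. All 10 were above 0 in KO/Het and all 10 in Het/KO, with medians of 0.44 and 0.49. In KO/wt 3 of the 10 were above 0, with a median of -0.27. Of 12 cardiomyocyte markers none rose and 2 fell in KO/wt, 1 rose and 1 fell in KO/Het, and 1 rose and 4 fell in Het/KO. Their summed level overlapped between all genotypes. Beside these and the other marker lists, 19.6%, 20.1% and 12.9% of all genes rose and 17.6%, 20.5% and 11.5% fell in the 3 comparisons. Of all 15804 genes, 7639, 7606 and 8226 were above 0, and 7352, 7757 and 5780 had an unadjusted p under 0.05 in edgeR's test. Of 12 hepatocyte markers 10 fell in KO/Het against Het/Het, with summed levels of 50.9 to 88.4 CPM against 121 to 421. In KO/wt against wild type 11 of the 12 were above 0, with a median of 2.82 on the log2 scale, and 1, Apoa1, rose (3.76, adjusted p = 0.0464), with summed levels of 56.6 to 189 CPM against 52.3 to 68.4. None was called in Het/KO, where 11 of the 12 were above 0 with a median of 1.16 and 0 had an unadjusted p under 0.05 in edgeR's test. With Het/wt libraries as controls for KO/Het, a choice made after seeing the data, 41 assembly factors rose, with a median of 0.50, where 21.5% of all genes rose. Of 5 adipocyte markers tested, 1, Fabp4, rose in KO/wt and KO/Het, by 1.11 and 1.15, and it had 0.23 in Het/KO (adjusted p = 0.386). Fabp4, which endothelial cells also express, made up nearly all of the summed level of the list, 1070 to 1975 CPM in KO/wt, 1152 to 2351 in KO/Het and 751 to 1039 in Het/KO against 637 to 871 over the other genotypes. The other 4 were not called and had log2 values in KO/Het of -1.08 (Adipoq), -1.35 (Cfd), -0.90 (Cidec) and -0.44 (Plin1). Of 12 macrophage and leukocyte markers none was called in KO/wt, 2 rose and 2 fell in KO/Het, and 2 rose in Het/KO, where their sum was 316 to 572 CPM against 293 to 343 in Het/wt. Of 8 atrial cardiomyocyte markers none rose and 2, 2 and 1 fell in the 3 comparisons. Of 5 skeletal muscle markers tested, Acta1 rose in KO/Het and Het/KO, by 1.51 and 1.66. Of 8 smooth muscle and pericyte markers, Acta2 and Cspg4 fell in KO/wt, Cspg4 in KO/Het and Acta2 in Het/KO. Of 8 endothelial markers Tek and Vwf fell in KO/Het, as did Tcf21 of 9 fibroblast markers. No erythroid marker of 5 was called in the 3 comparisons, with 4, 0 and 0 at an unadjusted p under 0.05 in edgeR's test. The markers named here were chosen after their values were seen. The part of these cell types in the changes of the 47 genes was not tested.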

How the data were processed

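Poly(A)-selected RNA from 24 mouse hearts was sequenced as single-end reads. Per the submitters' processing notes, reads were aligned with STAR 2.5.1b and counted with featureCounts 1.5.3. The file headers name featureCounts 1.5.2 with primary alignments, overlapping features and no strand, on mm10 gene models. The authors deposited raw counts per gene for each library. Members, roles and all gene lists were chosen with earlier results of these data known. Any of the 47 genes could be named. Per-library values were given for up to 3 called genes per role with the largest log2 change in KO/wt against wild type. Dkc1, Polr1a, Nle1 and Nat10 were given per library as well, a choice made after their values were seen. Of each pathway list up to 3 called genes in each direction were named.

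Genotypes and RNA isolation batches came from the labels. Titles hold numbers whose meaning is not given, and the labels do not state that each library is a different animal. The p-values therefore reflect only how these libraries vary, which may be technical. Replicates of a genotype differed by more than sampling noise in all 37 pairs (chi-square per degree of freedom 14.9 to 528). All 24 libraries entered 1 fit with genotype and batch in edgeR 4.0.16 (R 4.3.3): filterByExpr, TMM scaling, robust quasi-likelihood test, Benjamini-Hochberg adjustment, threshold 0.05. CPM values came from edgeR with TMM-scaled library sizes, and RPKM divides by exon length. The method was tested on simulated data. Alternatives were DESeq2 1.42.0, limma 3.58.1 voom, other size factors, no filter, no batch term, single batches, the genotypes compared alone, removal of Rn45s or of libraries above 10 CPM of Alb, leaving out each library and, chosen after seeing the data, Het/wt controls for KO/Het. Promoter windows are RefSeq's on GRCm38.p6, matched by symbol, and a combined table of the series was not used here.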

Additional observations from a re-analysis of the deposited data

Results flagged for a closer look

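In groups of 4 or 5 libraries, the highest or lowest value stood apart from the rest, by Dixon's test at the 95% level, in 9 of 235 groups over the 47 genes, or 3.83%. About 1 in 20 groups would do so by chance. High values of Het/wt replicate 4 were Gnl3 at 39.9 CPM (next 27.0), Wdr43 at 42.0 CPM (next 35.4) and Dkc1 at 16.2 CPM (next 14.9). KO/Het replicate 2 was low for Bysl, at 55.1 CPM (next 61.9), and Nip7, at 17.8 CPM (next 19.4), and replicate 5 for Nle1, at 13.8 CPM (next 16.8). Rrs1 was low in KO/wt replicate 4, at 38.3 CPM (next 49.4), Rrp12 high in wild-type replicate 3, at 70.7 CPM (next 51.0), and Ppan high in Het/KO replicate 2, at 21.3 CPM (next 18.8). The liver gene Alb was high in Het/KO replicate 2, at 36.8 CPM (next 5.41). No gene of the 47 differed between the Acadl and the Acadvl knockout effect in edgeR's test of that difference at an adjusted p of 0.05. The Acadvl effect there was measured in Acadl Het hearts, so gene and background cannot be told apart.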

How the results depend on the processing

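No paired analysis was possible because the numbers in the titles have no stated meaning and any 2 genotypes share at most 1 of their leading numbers. The counts of 43, 43 and 36 genes that rose stayed within 1.5 times under DESeq2, voom, other size factors, no filter, no batch term, batch 2 alone, the genotypes compared alone and removal of Rn45s, at 42 to 43, 41 to 43 and 28 to 37. Batch 1 alone gave 1, 1 and 0, with fewer samples in each group, and DESeq2 gave 1 in KO/wt against Het/KO, where edgeR gave 0. Without libraries above 10 CPM of Alb the counts were 42 and 33, and KO/Het against Het/Het could not be fitted since all 3 Het/Het libraries were removed. Leaving out each of the 24 libraries gave 41 to 44, 40 to 43 and 34 to 39 genes called in either direction in the 3 knockout comparisons. In 1 of these fits Emg1 was called lower in KO/Het, with log2 values of -0.22 to -0.10 over all such fits. Leaving out each library gave 0 to 1 called genes in KO/wt against Het/KO and 0 in the other comparisons. Median log2 changes over these fits were 0.71 to 0.81, 0.54 to 0.74 and 0.46 to 0.59 in the 3 knockout comparisons. Shares of all genes called are not given for these fits, or for DESeq2, voom, other size factors, no filter, no batch term and genotypes alone. Their counts therefore do not show whether calls over all genes moved as well.

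In the 3 knockout comparisons, the log2 changes that changed sign under any alternative belonged to genes not called in that comparison. In Het/KO, Imp3 was -0.0023 under voom, -0.0054 with no filter, -0.0083 with no batch term and -0.0127 with the genotypes compared alone, and Dkc1 was 0.0053 with no batch term, 0.0302 with the genotypes compared alone and 0.0329 without the libraries above the Alb limit. In batch 1 alone, Imp3 was -0.0536 in KO/wt, -0.0318 in KO/Het and -0.159 in Het/KO, and in Het/KO Dkc1 was 0.0937, Npm1 -0.152, Gnl2 -0.0544 and Ebna1bp2 -0.0957. Over fits without 1 library, Dkc1 in Het/KO ranged from -0.0977 to 0.0499, Imp3 from -0.0267 to 0.0714 and Npm1 from -0.0321 to 0.178, and Polr1a in KO/Het ranged from -0.184 to 0.0191. The cause of these shifts was not tested. The lowest count of any of the 47 genes in any library was 277, for Gar1.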
